A study of Canis lupus familiaris with 8 samples.

Results

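The genes described here encode splicing factors and components of the spliceosome, and were measured in retina of the dog (Canis lupus familiaris). They were chosen by gene symbol, with earlier results of these data known. Of the 12824 genes of the table, 122 carry a symbol of the Sm, LSm and snRNP, SF3A, SF3B and U2AF, PRPF, SRSF and TRA2, HNRNP, RBM, CLK, LUC7L or SRRM series, or are SON, PNISR or DDX5. They fall into 7 classes by symbol, with 24 core snRNP genes, 11 genes of the U2 particle and the acceptor site, 12 PRPF genes, 12 SR genes, 17 HNRNP genes, 31 RBM genes and 15 genes of nuclear speckles, SR protein kinases and related factors. A further 14 symbols of the RefSeq gene table of the dog assembly UU_Cfam_GSD_1.0 fit the same rule and were not analysed here, among them SRSF2, HNRNPC, SNRPD2, SNRPF, LSM6 and LSM8. Every member exceeded 1 CPM in at least 4 libraries, as did every gene of the table.

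Introns are removed from pre-mRNA by the spliceosome, which is assembled anew on each intron from small nuclear ribonucleoproteins (snRNPs). Each snRNP carries a small nuclear RNA, a ring of Sm or LSm proteins and proteins of its own; U1 recognises the donor site and U2 the branch point, and the joined U4, U5 and U6 particles bring the catalytic RNA. SR proteins and heterogeneous nuclear ribonucleoproteins (HNRNPs) bind exons and introns and set which sites are used. Retina is sensitive to this machinery: inherited variants in several genes of the U4, U5 and U6 particles, which every cell needs, cause dominant retinitis pigmentosa, a degeneration that begins in rods.

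The comparison was between PFA-fixed retina (4 libraries) and fresh-frozen retina (4 libraries) of male wild-type Beagles aged 31 weeks. Left eyecups were fixed with paraformaldehyde (PFA), a crosslinking agent, at 4% for 3 h and 2% for 24 h at 4 °C, then taken through 15% and 30% sucrose before freezing in embedding medium, and their RNA was prepared with a kit for paraffin-embedded tissue after 18 h of proteinase K at 56 °C. Right eyecups were embedded and frozen unfixed, and their RNA was prepared with a column kit for small samples. Effects of fixation, of left or right eye and of the kit cannot be told apart in this design. All libraries were made with the same stranded total RNA kit. The labels number the libraries within a group without saying which came from the same dog, so a p-value refers to the spread among these 8 libraries alone, which may be technical.

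The steps between low values gave effective depths of 11030000 to 15340000 reads in PFA-fixed and 21610000 to 22810000 reads in fresh-frozen libraries. Rod genes were abundant in both groups, with a summed level of 49451 to 55050 CPM over 23 genes in PFA-fixed and 43781 to 50864 CPM in fresh-frozen retina. Markers of sclera, pigment epithelium, vessels and microglia moved with the preparation. The 8 sclera and fibroblast genes, all called lower, summed to 20.9 to 43.3 CPM in PFA-fixed and 6873 to 10098 CPM in fresh-frozen libraries, and 3 of them stayed below 1 CPM in every fixed library. All 5 pigment epithelium genes, all 5 melanin genes, all 5 endothelial genes and all 5 pericyte genes were also called lower, as were 5 of 7 microglia genes. The 3 sclera genes, 2 melanin genes and 1 microglia gene stayed below 1 CPM in every fixed library. Every gene of the table exceeded 1 CPM in at least 4 libraries, so such genes could be in it only as falls. Of the 23 rod genes 10 were called higher and 5 lower, where 33.9% and 34.7% of all genes were. All 4 bipolar cell genes were called higher, with sums of 2102 to 2773 CPM in PFA-fixed and 1174 to 1520 CPM in fresh-frozen libraries. Of 5 Müller glia genes 3 were called lower, with sums of 2535 to 3231 CPM in PFA-fixed and 4753 to 6427 CPM in fresh-frozen libraries, and of 4 measured ganglion cell genes 3 were called lower. RLBP1 is in both the Müller glia list and the pigment epithelium list, so its fall is counted in both. The part of these cells and tissues in the results below was not tested, and in bulk tissue fewer cells of a type and less RNA per cell cannot be told apart.

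Of the 122 splicing genes, 84 were called higher (68.9%) and 12 lower (9.84%) in PFA-fixed retina with limma, at an adjusted p under 0.05 over all genes. That is 96 calls (78.7%), where 68.7% of all genes were called. Among all genes, 33.9% were called higher and 34.7% lower. The members' median change was 0.48 on the log2 scale, against -0.02 for all genes, and the quartiles were 0.05 and 0.91 for the members and -0.54 and 0.48 for all genes. A called rise of at least 2-fold was seen in 26 members and a called fall of that size in 2, where 10.6% and 13.7% of all genes passed the same rule. In 80 members every PFA-fixed library exceeded every fresh-frozen one, and in 13 every PFA-fixed library was lower (31.3% and 31.6% of all genes). Together the members took 2.63%, 2.80%, 2.67% and 2.59% of the summed CPM of PFA-fixed replicates 1 to 4, against 1.75%, 1.83%, 1.74% and 1.80% in fresh-frozen replicates 1 to 4. The groups did not overlap in this share, which was 1.5-fold higher in PFA-fixed libraries. In RefSeq 25 members, 21 of them called, overlap another protein-coding gene, TRA2A, PRPF6, PRPF19, SNRPD3, RBM4B and RBM14 among them, and the strand setting is not given in the sources used here, so reads of such genes cannot be told apart.

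These directions depend on how libraries are scaled. Centring each library on the mean of the 23 rod genes (rod-mean scaling) moved the median of all genes by -0.27 and left 62 members called higher and 26 lower. Centring on their median (rod-median scaling) moved it by -0.86 and left 21 higher and 67 lower, with a members' median of -0.38. The median change of the rod genes themselves was 0.14 as deposited, and rod-median scaling brought it to -0.72. A change below 0 under rod-median scaling therefore does not by itself place a gene below a typical rod gene. These scalings and median centring subtract 1 value per library from every gene, so they leave the gap between the members' median and that of all genes at 0.5 by construction; with quantile normalization it was 0.40. Rises made up 87.5% of the members' calls as deposited, 70.5% under rod-mean scaling and 23.9% under rod-median scaling, where those over all genes were 49.4%, 30.5% and 8.03%. A called rise smaller than 0.27 therefore lies below 0 under rod-mean scaling (6 members), and one smaller than 0.86 lies below 0 under rod-median scaling (50 members).

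**Figure D1:**
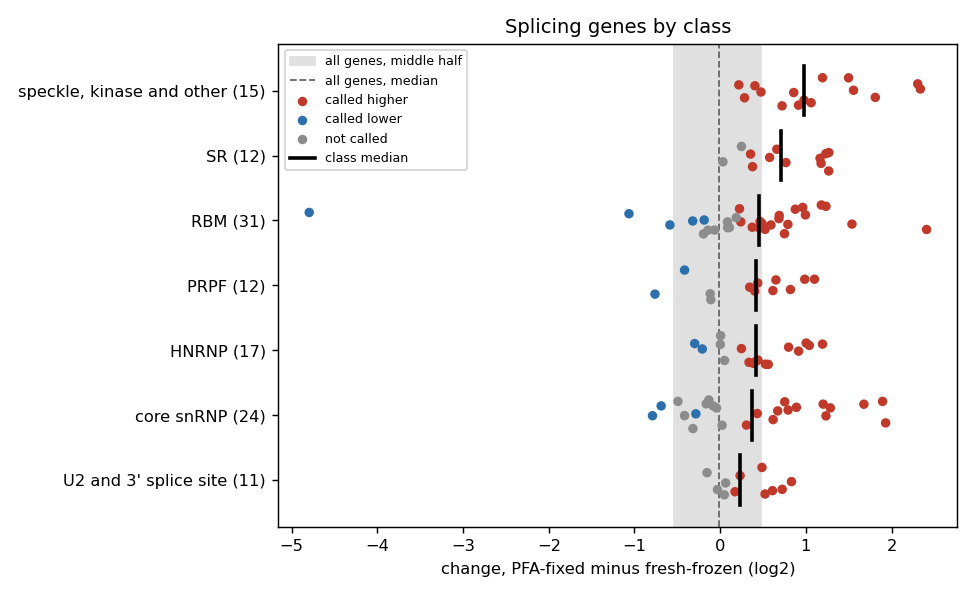
Change of each splicing gene (log2, PFA-fixed minus fresh-frozen) by class, coloured by the limma call; black bars are class medians, the grey band spans the quartiles of all genes and the dashed line is their median. Class medians run from 0.23 to 0.98 as deposited, all above the all-gene median of -0.02, and RBM47 stands apart at -4.80; under rod-median scaling, only the uppermost class keeps a median above 0 (0.12).

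Class medians ran from 0.98 for the speckle and kinase class and 0.71 for SR genes, through 0.46 for RBM, 0.42 for PRPF, 0.41 for HNRNP and 0.37 for core snRNP genes, to 0.23 for the U2 and acceptor-site class. All 15 genes of the speckle and kinase class, which also holds related factors, and 10 of 12 SR genes were called higher. None of either class was called lower, also at an unadjusted p under 0.05. Of the core snRNP genes 13 were called higher and 3 lower (54.2% and 12.5%). Over all genes 33.9% were called higher and 34.7% lower. With rod-mean scaling the medians were 0.71, 0.45, 0.19, 0.15, 0.14, 0.10 and -0.04, in the same class order, and under rod-median scaling they were 0.12, -0.15, -0.40, -0.44, -0.45, -0.49 and -0.63. The classes overlap widely, from -0.79 to 1.93 in core snRNP genes and from 0.03 to 1.27 in SR genes, and the difference between classes was not tested.

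All 3 measured genes of the U1 particle, which pairs with the donor site, rose in PFA-fixed retina as deposited, and SNRPA lay below 0 under rod-median scaling. SNRNP70, which encodes the U1 protein that SR proteins contact, was at 8.42, 8.57, 8.36 and 8.42 log2 CPM in PFA-fixed and at 6.25, 6.48, 6.56 and 6.75 log2 CPM in fresh-frozen libraries, a 3.81-fold difference with no overlap (change 1.93 ± 0.10 SE, limma adjusted p = 1.14e-08). SNRPC, for the U1 zinc finger protein, rose by 1.20, with 6.58 to 6.80 log2 CPM in PFA-fixed and 5.15 to 5.84 log2 CPM in fresh-frozen libraries (limma adjusted p = 1.55e-05); under rod-median scaling it was at 0.34 and not called. SNRPA, for an RNA-binding protein of U1, rose by 0.67 (-0.19 under rod-median scaling). SNRPB2 encodes the related protein of the U2 particle and fell by 0.28 (limma adjusted p = 0.0389). That call ended with the replicate block (limma adjusted p = 0.0689), with median centring (-0.20) and with quantile normalization (-0.11). It also ended without any single library other than PFA-fixed replicate 1 and fresh-frozen replicates 1 and 3 (-0.30 to -0.23).

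The Sm proteins form a ring around most small nuclear RNAs of the spliceosome. Of the 5 Sm genes among the members 4 rose and 1 fell. SNRPD1 was at 5.80, 6.17, 5.85 and 5.75 log2 CPM in PFA-fixed and at 3.79, 4.05, 4.20 and 3.95 log2 CPM in fresh-frozen libraries, a rise of 1.90 ± 0.12 (SE, limma adjusted p = 6.61e-08) and the widest gap of the ring. SNRPG, SNRPD3 and SNRPE rose by 1.23, 0.89 and 0.75, and under rod-median scaling SNRPD3 was at 0.03 and not called and SNRPE at -0.11. SNRPB, for the SmB protein, fell by 0.79 ± 0.10 (SE, limma adjusted p = 1.80e-05), with 4.26, 4.08, 4.06 and 4.06 log2 CPM in PFA-fixed and 5.03, 4.96, 4.77 and 4.87 log2 CPM in fresh-frozen libraries. Neither group overlapped the other for any of these 5 genes. Over all genes, 31.3% were higher without overlap and 31.6% lower without overlap. In the human genome Sm protein genes have many processed copies, and reads of such copies could not be told apart here.

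**Figure D2:**
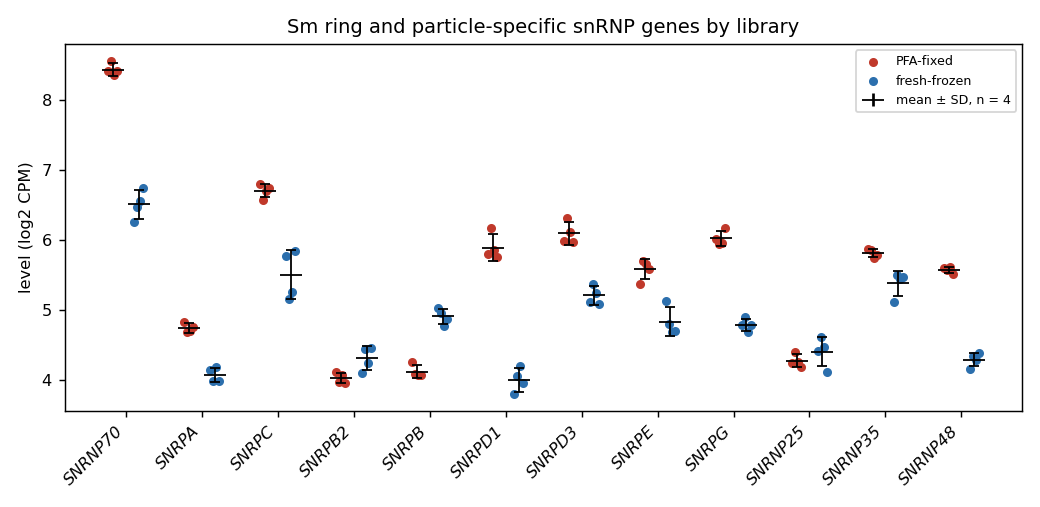
Level (log2 CPM) of U1, U2, Sm ring and U11/U12 genes in each library, with PFA-fixed points left of fresh-frozen ones; bars are means ± SD (n = 4). SNRNP70 and SNRPD1 show the widest upward gaps (1.93 and 1.90), and SNRPB is lower in every PFA-fixed library; under rod-median scaling SNRPA, SNRPE and SNRNP35 would lie lower in PFA-fixed libraries.

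The LSm genes, whose products ring the U6 RNA in the nucleus or act in mRNA decay in the cytoplasm, moved in both directions. Of 9, 4 were called higher and 1 lower (44.4% and 11.1%, against 33.9% and 34.7% of all genes), and their median was 0.02. LSM5, LSM3 and LSM4 rose by 1.68, 0.79 and 0.62 (LSM3 and LSM4 at -0.07 and -0.24 under rod-median scaling). LSM5 was low throughout, with 1.78, 1.5, 1.37 and 1.20 log2 CPM in PFA-fixed and 0.16, -0.77, -0.07 and -0.19 log2 CPM in fresh-frozen libraries. Every gene of the table exceeded 1 CPM in at least 4 libraries, and LSM5 reached this only through the PFA-fixed ones. Its call, counted among the core snRNP rises, therefore gives no support for the direction. LSM12, which is named with the family but forms no ring, rose by 0.31 (0.039 and not called under rod-mean scaling, and -0.55 under rod-median scaling). LSM10, which belongs to the U7 particle of histone mRNA processing, fell by 0.69, with limma adjusted p = 0.00441, and was not called with quantile normalization (-0.31). LSM11, its U7 partner, differed by -0.49 (limma adjusted p = 0.208). Without fresh-frozen replicate 2 it passed the test (-0.78). LSM1, of the decay ring, stood at -0.42 (limma adjusted p = 0.0607), and passed the test without fresh-frozen replicate 3 (-0.53) or when no trend was fitted (limma adjusted p = 0.0415). Under rod-mean scaling LSM1 was called lower (-0.68). LSM7 differed by -0.08 and LSM2 by 0.02, and LSM2 was called higher with quantile normalization (0.32) and lower under rod-median scaling (-0.84).

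Members of the minor spliceosome, which removes a rare class of introns through the U11 and U12 particles, included SNRNP48, SNRNP35 and SNRNP25. SNRNP48 was at 5.52 to 5.62 log2 CPM in PFA-fixed and 4.16 to 4.38 log2 CPM in fresh-frozen libraries and rose by 1.29 (limma adjusted p = 7.83e-08). SNRNP35 rose by 0.43 (-0.43 under rod-median scaling, and 0.16 and not called under rod-mean scaling). SNRNP25 differed by -0.13 and was not called, but was called lower under rod-mean scaling (-0.40). Of the 3 genes named for U5 and the tri-snRNP, none was called with limma, and 1 had an unadjusted p under 0.05. They were SNRNP200 (-0.04), SNRNP27 (-0.16) and SNRNP40 (-0.32). SNRNP40 was called lower without PFA-fixed replicate 1 (-0.40) or 3 (-0.37), and all 3 were called lower under rod-mean scaling.

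The U2 and acceptor-site class had 7 called rises and no called fall among 11 genes, also at an unadjusted p under 0.05. Over all genes 33.9% were called higher and 34.7% lower. Under rod-mean scaling the class had 4 called rises and 3 called falls. U2AF1, for the U2AF subunit that reads the acceptor dinucleotide, rose by 0.83, with 5.64 to 5.88 log2 CPM in PFA-fixed and 4.81 to 5.14 log2 CPM in fresh-frozen libraries (limma adjusted p = 1.03e-05; -0.03 under rod-median scaling). U2AF2, whose product binds the pyrimidine tract, rose by 0.52 (-0.34 under rod-median scaling). SF3B1, the branch point clamp of U2, rose by 0.72, with 9.04, 9.11, 9.13 and 9.09 log2 CPM in PFA-fixed and 8.30, 8.49, 8.27 and 8.41 log2 CPM in fresh-frozen libraries (-0.14 under rod-median scaling). Calls differed within its complex, and differences between its subunits were not tested. SF3B6 rose by 0.49 (0.22 and not called under rod-mean scaling, and -0.37 under rod-median scaling). SF3B2, SF3B3, SF3B4 and SF3B5 stood at 0.05, -0.03, -0.15 and 0.06, none of them called. Under rod-mean scaling SF3B2, SF3B3 and SF3B4 were called lower (-0.22, -0.30 and -0.42). SF3B5 was low, at 0.21 to 1.25 log2 CPM in PFA-fixed and 0.17 to 1.16 log2 CPM in fresh-frozen libraries, and the SE of its change was 0.31. The 3 SF3A genes all rose, SF3A2 by 0.61, SF3A3 by 0.23 and SF3A1 by 0.17 (-0.25, -0.63 and -0.69 under rod-median scaling; SF3A3 and SF3A1 at -0.04 and -0.10 under rod-mean scaling). The call of SF3A1 ended with quantile normalization (0.09), when no trend was fitted and without any single library other than PFA-fixed replicate 4 and fresh-frozen replicate 2 (0.13 to 0.19).

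The 6 members linked to dominant retinitis pigmentosa are PRPF3, PRPF4, PRPF6, PRPF8, PRPF31 and SNRNP200, all proteins of the U4, U5 and U6 particles. Of them, 3 rose (PRPF3, PRPF31 and PRPF6), 1 fell (PRPF4) and 2 were not called, with a median change of 0.15. The 4 calls (66.7%) lie near the share over all genes (68.7%), of which 33.9% were called higher and 34.7% lower. PRPF3, a U4/U6 protein, was at 6.51, 6.47, 6.51 and 6.52 log2 CPM in PFA-fixed and at 5.31, 5.42, 5.35 and 5.53 log2 CPM in fresh-frozen libraries. The groups lay far apart, with a rise of 1.10 ± 0.07 (SE, limma adjusted p = 6.89e-08), which was 0.24 and not called under rod-median scaling. PRPF4 encodes the partner to which PRPF3 binds in that particle. It was at 4.00, 3.61, 3.60 and 3.64 log2 CPM in PFA-fixed and at 4.02, 4.11, 4.12 and 4.26 log2 CPM in fresh-frozen libraries, a fall of 0.42 (limma adjusted p = 0.00963) in which PFA-fixed replicate 1 nearly reached the fresh-frozen range. Its call ended with quantile normalization (-0.21).

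PRPF31, a protein of the U4/U6 particle, is the most often mutated of the group in dominant disease. It was at 6.78, 6.92, 6.89 and 6.82 log2 CPM in PFA-fixed and at 6.57, 6.38, 6.42 and 6.28 log2 CPM in fresh-frozen libraries, a rise of 0.44 ± 0.07 (SE, limma adjusted p = 0.000218). PRPF6, which bridges U5 to U4/U6, was at 7.43, 7.62, 7.45 and 7.37 log2 CPM in PFA-fixed and at 7.23, 7.17, 7.11 and 6.99 log2 CPM in fresh-frozen libraries, a rise of 0.34 (limma adjusted p = 0.00141). Both were higher in all PFA-fixed libraries, but neither was called under rod-mean scaling (0.17 and 0.076), and both were called lower under rod-median scaling (-0.42 and -0.52). PRPF8, the scaffold of the catalytic centre, was at 9.56, 9.54, 9.56 and 9.47 log2 CPM in PFA-fixed and at 9.69, 9.70, 9.61 and 9.59 log2 CPM in fresh-frozen libraries. Each fixed library was lower, by 0.12 on average, and the gene was not called (limma adjusted p = 0.0957), whereas quantile normalization (-0.26), rod-mean scaling (-0.39) and rod-median scaling (-0.98) called it lower. SNRNP200, the helicase that unwinds U4 from U6, overlapped between groups, with 9.17, 9.34, 9.22 and 9.09 log2 CPM in PFA-fixed and 9.35, 9.31, 9.19 and 9.14 log2 CPM in fresh-frozen libraries (limma adjusted p = 0.624). It too was called lower with quantile normalization (-0.23), rod-mean scaling (-0.31) and rod-median scaling (-0.90). The 6 genes together took 0.166 ± 0.00542% of the summed CPM in PFA-fixed and 0.176 ± 0.00767% in fresh-frozen libraries (SD, n = 4 each), and the groups overlapped in this share.

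**Figure D3:**
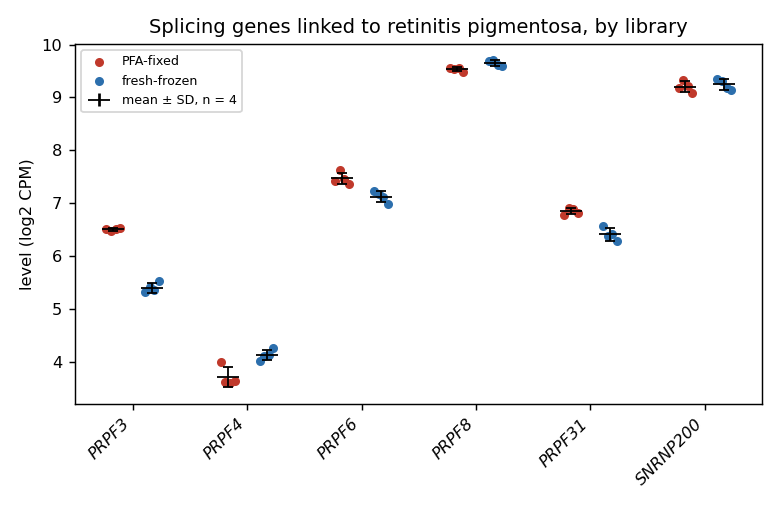
Level (log2 CPM) of the 6 splicing genes linked to dominant retinitis pigmentosa in each library, with PFA-fixed points left of fresh-frozen ones; bars are means ± SD (n = 4). PRPF3 shows the widest gap (1.10), PRPF31 and PRPF6 are higher in every PFA-fixed library (lower under rod-median scaling), PRPF4 and PRPF8 are lower, and SNRNP200 overlaps.

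The other 7 PRPF genes had 5 called rises and 1 called fall (71.4% and 14.3%, against 33.9% and 34.7% of all genes). The U1-associated genes PRPF40B and PRPF39 rose by 0.99 and 0.82, and the kinase gene PRPF4B rose by 0.65 (0.13, -0.04 and -0.21, none called, under rod-median scaling). PRPF38A, needed for activation of the spliceosome, rose by 0.40 (-0.46 under rod-median scaling) and lost its call under rod-mean scaling (0.14). PRPF19, the ubiquitin ligase at the heart of the complex that stabilises the active spliceosome, fell by 0.76, with 6.0, 6.06, 5.92 and 5.79 log2 CPM in PFA-fixed and 6.78, 6.61, 6.78 and 6.66 log2 CPM in fresh-frozen libraries (limma adjusted p = 3.41e-06). PRPF18, a late splicing factor, differed by -0.11 and was called lower only under rod-mean (-0.38) and rod-median (-0.97) scaling among the alternatives run.

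SR proteins join RNA-recognition domains to a tail rich in arginine and serine, and recruit U1 and U2 to exons. Of 10 SRSF genes 8 rose and none fell, where 33.9% of all genes rose and 34.7% fell. SRSF5 was at 8.05, 8.33, 8.05 and 8.06 log2 CPM in PFA-fixed and at 6.98, 6.87, 6.59 and 6.98 log2 CPM in fresh-frozen libraries, a rise of 1.27 ± 0.10 (SE, limma adjusted p = 3.60e-07). SRSF1, the founding member of the family, was at 8.32, 8.21, 8.01 and 7.96 log2 CPM in PFA-fixed and at 6.92, 6.72, 6.93 and 7.0 log2 CPM in fresh-frozen libraries, a rise of 1.23 ± 0.09 (SE, limma adjusted p = 2.53e-07). SRSF10 and SRSF6 rose by 1.18 and 1.17. For these 4 genes every fixed library lay above every fresh-frozen one, and the rise stayed above 0 under rod-median scaling.

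Smaller rises were seen for SRSF4 (0.77), SRSF11 (0.66), SRSF7 (0.58) and SRSF3 (0.35), which under rod-median scaling were at -0.09, -0.20, -0.28 and -0.51. SRSF3 also lost its call under rod-mean scaling (0.09). SRSF9 overlapped between groups, at 5.66 to 5.79 log2 CPM in PFA-fixed and 5.56 to 5.83 log2 CPM in fresh-frozen libraries, and differed by 0.03 (limma adjusted p = 0.736). SRSF12 was at a change of 0.25 (limma adjusted p = 0.0855). It passed the test as a rise without fresh-frozen replicate 2 (0.36), with median centring (0.33) and with quantile normalization (0.38), and as a fall under rod-median scaling (-0.61). The paralogs TRA2A and TRA2B, relatives of the fly gene transformer-2, rose by 1.27 and 0.38 (TRA2B at 0.11 and not called under rod-mean scaling, and at -0.48 under rod-median scaling). TRA2A was at 7.55, 7.53, 7.55 and 7.45 log2 CPM in PFA-fixed and at 6.19, 6.18, 6.29 and 6.35 log2 CPM in fresh-frozen libraries (limma adjusted p = 1.16e-08). The SR genes together took 0.217 ± 0.00954% of the summed CPM in PFA-fixed and 0.131 ± 0.00495% in fresh-frozen libraries (SD, n = 4 each), a 1.65-fold difference.

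**Figure D4:**
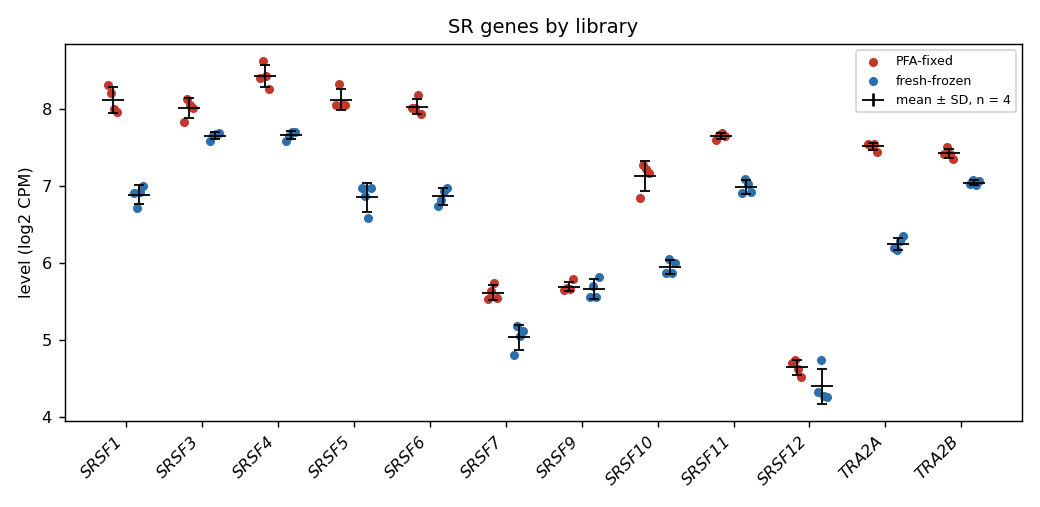
Level (log2 CPM) of 10 SRSF genes, TRA2A and TRA2B in each library, with PFA-fixed points left of fresh-frozen ones; bars are means ± SD (n = 4). The groups are apart for every gene shown except SRSF9 and SRSF12; under rod-median scaling SRSF3, SRSF4, SRSF7, SRSF11 and TRA2B would lie lower in PFA-fixed libraries.

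HNRNP proteins coat nascent transcripts, and many of them oppose SR proteins at splice sites. Of 17 HNRNP genes 12 rose and 2 fell (70.6% and 11.8%, against 33.9% and 34.7% of all genes). HNRNPD, whose product also binds AU-rich elements in mRNA, was at 8.81, 9.04, 8.88 and 8.86 log2 CPM in PFA-fixed and at 7.64, 7.74, 7.68 and 7.74 log2 CPM in fresh-frozen libraries, a rise of 1.19 ± 0.06 (SE, limma adjusted p = 2.00e-08). HNRNPR and HNRNPA2B1 rose by 1.04 and 1.0, and were at 0.18 and 0.14 and not called under rod-median scaling. HNRNPH3 rose by 0.92 and the nuclear scaffold gene HNRNPU by 0.80 (0.06 and -0.06, neither called, under rod-median scaling). The remaining 7 rises lay between 0.25 for HNRNPM and 0.56 for HNRNPDL, with HNRNPA1 at 0.41 and HNRNPK at 0.39, and all 7 lay below 0 under rod-median scaling. Under rod-mean scaling 5 of them were not called: HNRNPA3 (0.17), HNRNPA1 (0.14), HNRNPK (0.12), HNRNPH1 (0.068) and HNRNPM (-0.021). The call of HNRNPM also ended with quantile normalization (0.068).

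The 2 falls were in relatives of genes that rose. HNRNPUL1, a relative of HNRNPU, fell by 0.30, with 8.21, 8.23, 8.23 and 8.10 log2 CPM in PFA-fixed and 8.53, 8.57, 8.42 and 8.43 log2 CPM in fresh-frozen libraries (limma adjusted p = 0.00102). HNRNPH2, a close paralog of HNRNPH1, fell by 0.21 (limma adjusted p = 0.0167). Its call was lost without fresh-frozen replicate 4 (-0.17) and with median centring (-0.13). HNRNPL, HNRNPAB and HNRNPF differed by 0.00158, 0.00557 and 0.05 and were not called, though HNRNPL and HNRNPF were called lower under rod-mean scaling (-0.27 and -0.22). HNRNPA1 has many processed copies in the human genome, so its reads may be shared.

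The RBM symbol covers proteins that share an RNA-binding motif and act in splicing, export, decay and ribosome assembly. Of 31 RBM genes 19 rose and 5 fell (61.3% and 16.1%, against 33.9% and 34.7% of all genes), over a range of -4.80 to 2.41. The widest rise of all 122 members was that of RBM25, a U1-associated regulator of donor site choice, at 10.05, 10.15, 10.05 and 10.09 log2 CPM in PFA-fixed and 7.52, 7.73, 7.62 and 7.83 log2 CPM in fresh-frozen libraries. This was a 5.31-fold difference with no overlap (change 2.41 ± 0.07 SE, limma adjusted p = 2.99e-10). RBM33, linked to mRNA export, and RBM45 rose by 1.54 and 1.23, and RBM4B by 1.18. The related regulators RBM5 and RBM6 rose by 0.96 and 0.46, while RBM10 of the same family differed by 0.09 and was not called (RBM5 at 0.10 and not called, and RBM6 and RBM10 at -0.40 and -0.77, under rod-median scaling). RBM17, which acts at the acceptor site, RBM39, a coactivator related to U2AF2, and RBM8A, of the exon junction complex, rose by 0.88, 0.59 and 0.23 (RBM17 at 0.017 and not called, and RBM39 and RBM8A at -0.27 and -0.63, under rod-median scaling; RBM8A at -0.04 under rod-mean scaling). RBM19, of ribosome assembly, rose by 0.24, and its call ended when limma was run with no trend and without PFA-fixed replicate 1 or 2 or fresh-frozen replicate 3 or 4 (0.18 to 0.22); it was at -0.028 under rod-mean scaling. RBM22, a protein of the catalytic core, differed by -0.06 (limma adjusted p = 0.467).

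RBM47 stood apart from all other members. It encodes a protein known from epithelia as a cofactor of apolipoprotein B mRNA editing, and was at -2.26, -0.24, -0.20 and -0.29 log2 CPM in PFA-fixed and at 4.46, 4.09, 3.99 and 3.65 log2 CPM in fresh-frozen libraries. All fixed libraries lay below 1 CPM, and the fall was 4.80 ± 0.42 (SE, limma adjusted p = 1.09e-06), or 4.29 without PFA-fixed replicate 1. Every gene of the table exceeded 1 CPM in at least 4 libraries, and RBM47 did so in fresh-frozen libraries alone. A gene of this pattern could be in the table only as a fall, so its p-value gives no support for the direction. RBM47 fell beside the pigment epithelium list (74.0 to 148 CPM in PFA-fixed and 1761 to 2742 CPM in fresh-frozen libraries), the endothelial list (67.0 to 88.7 CPM in PFA-fixed and 432 to 679 CPM in fresh-frozen libraries) and the microglia list (14.4 to 21.0 CPM in PFA-fixed and 108 to 144 CPM in fresh-frozen libraries). The part of these cells in its fall was not tested. The value of PFA-fixed replicate 1 lay close to the lowest value of the table, -3.12 log2 CPM, so the size of the fall is uncertain.

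RBM38, a p53 target that stabilises mRNA, fell by 1.06, with 2.43, 2.68, 2.89 and 1.61 log2 CPM in PFA-fixed and 3.69, 3.59, 3.18 and 3.40 log2 CPM in fresh-frozen libraries (limma adjusted p = 0.00249). RBM12B and RBM15B fell by 0.59 and 0.32. RBM18 fell by 0.19, and its call ended with the replicate block (limma adjusted p = 0.0719), with median centring (-0.11), with quantile normalization (-0.16) and without any single library other than PFA-fixed replicate 3 (-0.20 to -0.16). RBM24 and RBM20, known for muscle splicing, were low in both groups. RBM24 rose by 0.99, with 1.48 to 1.60 log2 CPM in PFA-fixed and -0.23 to 1.07 log2 CPM in fresh-frozen libraries (0.13 and not called under rod-median scaling). It lay below 1 CPM in fresh-frozen replicate 1, so it met the minimum of 4 libraries above 1 CPM only with fixed ones. RBM20 differed by -0.19 (limma adjusted p = 0.488).

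Nuclear speckles are the bodies in which splicing factors are stored, and CLK kinases release SR proteins from them by phosphorylation. All 15 genes of this class rose, by 0.22 for DDX5 to 2.34 for SRRM5. SRRM2, a scaffold of speckles, rose by 1.5, with 11.65 to 11.81 log2 CPM in PFA-fixed and 10.14 to 10.30 log2 CPM in fresh-frozen libraries (limma adjusted p = 8.52e-09), and its partner SRRM1 rose by 0.72 (-0.14 under rod-median scaling). SRRM3, a neural regulator of microexons, was at 8.89, 9.36, 9.04 and 8.76 log2 CPM in PFA-fixed and at 6.72, 6.72, 6.69 and 6.70 log2 CPM in fresh-frozen libraries. This is a 4.94-fold difference (change 2.31 ± 0.11 SE, limma adjusted p = 6.19e-09). SRRM4, the other microexon regulator, was at 6.85, 6.70, 6.94 and 6.85 log2 CPM in PFA-fixed and at 5.61, 5.71, 6.26 and 5.84 log2 CPM in fresh-frozen libraries, a rise of 0.98 (limma adjusted p = 2.20e-05) that was 0.12 and not called under rod-median scaling. SRRM5 was low, at 2.58 to 2.85 log2 CPM in PFA-fixed and -0.79 to 0.86 log2 CPM in fresh-frozen libraries, and its rise was 1.94 without fresh-frozen replicate 1. It lay below 1 CPM in that library, so it met the minimum of 4 libraries above 1 CPM only with fixed ones.

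The LUC7L proteins travel with U1 and tune donor site choice. LUC7L rose by 1.81, with 7.32, 7.43, 7.30 and 7.05 log2 CPM in PFA-fixed and 5.18, 5.43, 5.77 and 5.48 log2 CPM in fresh-frozen libraries (limma adjusted p = 1.02e-07). LUC7L3 rose by 1.19, with 9.18, 9.26, 9.39 and 9.04 log2 CPM in PFA-fixed and 7.77, 8.68, 7.87 and 7.77 log2 CPM in fresh-frozen libraries, where replicate 2 lay above the other 3, and by 1.41 without that library. LUC7L2 rose by 0.48 (-0.38 under rod-median scaling). The kinase genes CLK4, CLK2, CLK1 and CLK3 rose by 1.06, 0.91, 0.86 and 0.41, and under rod-median scaling they were at 0.20, 0.054, -0.00149 and -0.45, with no rise called. CLK3 was also not called under rod-mean scaling (0.14). SON and DDX5, an RNA helicase gene, had the smallest rises (0.28 and 0.22), and both calls ended with quantile normalization (0.15 and 0.08). Under rod-mean scaling SON was at 0.016 and DDX5 at -0.05, neither called, and SON and DDX5 at -0.58 and -0.64 under rod-median scaling.

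A ratio between a pair of genes within 1 library does not change when 1 value per library is subtracted from every gene. Quantile normalization can change it. Ratios were therefore formed for 23 pairs of related members, chosen by family after their values had been seen, as the difference of their log2 CPM. In 19 pairs the ratios of the PFA-fixed libraries did not overlap those of the fresh-frozen libraries. Of all pairs of genes in the table, 63.3% did not overlap in the same way. Because the pairs were chosen with their values known, and some share a gene (HNRNPU, LUC7L2, RBM5 and SRSF6 among them), no test is given. The log2 ratio of LUC7L to LUC7L2 was 0.06 ± 0.08 in PFA-fixed and -1.27 ± 0.17 in fresh-frozen libraries (SD, n = 4 each), a difference of 1.33. The log2 ratio of SRSF1 to SRSF9 differed by 1.20 and that of HNRNPU to HNRNPUL1 by 1.10.

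Within the Sm ring the log2 ratio of SNRPD1 to SNRPD3 was -0.20 ± 0.05 in PFA-fixed and -1.21 ± 0.14 in fresh-frozen libraries (SD, n = 4 each), so that their balance shifted 2.01-fold. The log2 ratio of TRA2A to TRA2B was 0.09 ± 0.05 in PFA-fixed and -0.80 ± 0.09 in fresh-frozen libraries (SD, n = 4 each). Those of RBM5 to RBM10, RBM15 to RBM15B and RBM26 to RBM27 differed by 0.88, 0.79 and 0.58. The log2 ratio of SRSF4 to SRSF6 differed by -0.40. The 4 pairs that overlapped were SRSF5 to SRSF6 (0.10), HNRNPA3 to HNRNPA1 (0.03), CLK1 to CLK4 (-0.20) and SRSF3 to SRSF7 (-0.22).

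**Figure D5:**
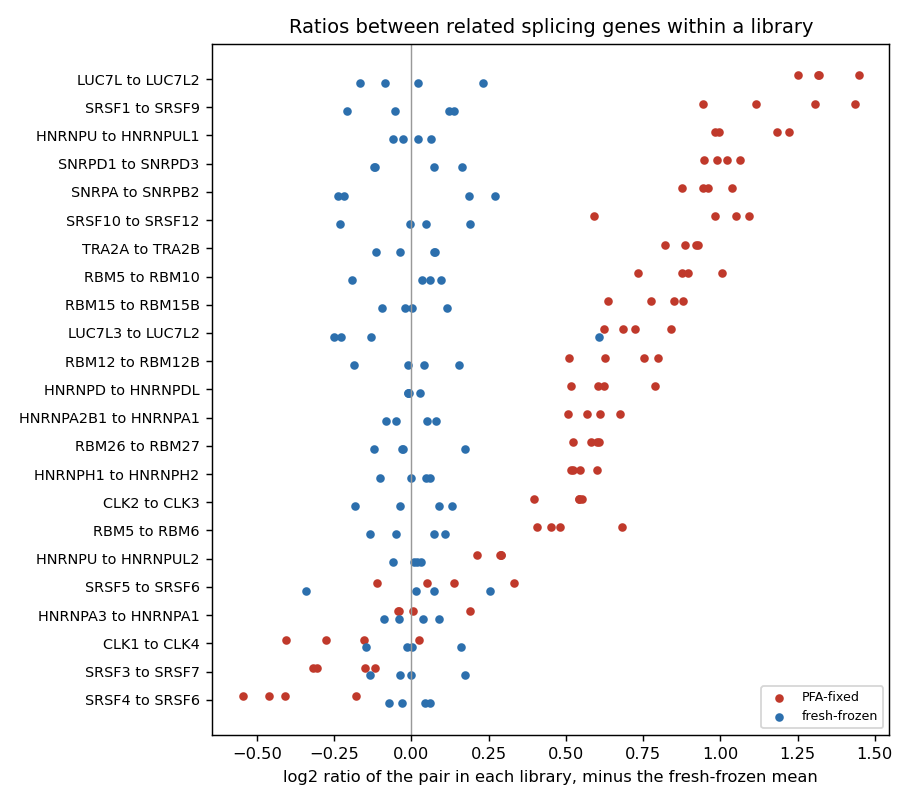
Log2 ratio of 23 pairs of related splicing genes in each library, shifted so that the fresh-frozen mean of each pair is 0; PFA-fixed points are drawn above fresh-frozen ones. The PFA-fixed libraries lie to the right for LUC7L to LUC7L2 (1.33) and SRSF1 to SRSF9 (1.20), and the groups mix for SRSF5 to SRSF6, HNRNPA3 to HNRNPA1 and CLK1 to CLK4.

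Splicing genes that the symbol rule does not cover were described from a list of 116, of which 109 were measured. The list was chosen with earlier results of these data known. Of these, 60 rose and 23 fell, with a median change of 0.37 (33.9% and 34.7% of all genes). All 4 measured genes of the minor spliceosome rose, led by ZRSR2 (1.38) and RNPC3 (0.97, and 0.11 and not called under rod-median scaling). The other rises of this group were 0.38, so they lay below 0 under rod-median scaling. Of 8 exon junction genes 6 rose and none was called lower, also at an unadjusted p under 0.05, with the speckle-associated genes PNN and ACIN1 up by 2.24 and 1.56. The smallest exon junction rises were 0.21, with overlap between the groups, and lay below 0 under rod-mean scaling. Of 12 helicase and GTPase genes 6 rose and none was called lower, also at an unadjusted p under 0.05, led by DDX41 (2.21) and DHX16 (1.59).

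The 26 genes of the PRP19 complex and the catalytic core gave 16 rises, led by PQBP1 (1.23) and CRNKL1 (1.03, and 0.17 and not called under rod-median scaling), and 5 falls, led by PPIL1 (-0.74) and SNU13 (-0.72). SNU13 encodes the U4 protein that PRPF31 recognises. Genes that load the Sm ring gave 6 rises and 4 falls of 11, with GEMIN2 and PRMT5 up by 1.17 and 0.83 (0.31 and not called, and -0.027, under rod-median scaling) and GEMIN4 and STRAP down (-0.62 and -0.42). The call of GEMIN4 ended with quantile normalization (-0.27). The 8 U2-associated genes gave 3 rises and 3 falls (37.5% each), near the shares over all genes (33.9% and 34.7%). U2SURP (0.75) and SMNDC1 (0.39) were up, and PHF5A (-0.49), a subunit of the SF3B complex, and PUF60 (-0.45) were down. With rod-median scaling U2SURP and SMNDC1 were at -0.11 and -0.47.

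Of 27 tissue-specific splicing regulators 10 rose and 8 fell, with a median of 0.09. These shares (37.0% and 29.6%) lie near those over all genes (33.9% and 34.7%). CELF6 and the epithelial regulator ESRP2 rose by 1.27 and 1.23 (ESRP2 at 0.37 and not called under rod-median scaling), and the RNA-binding genes ELAVL2 and ELAVL1 fell by 0.69 and 0.68. ESRP2 was low, at 0.94 to 1.52 log2 CPM in PFA-fixed and -0.55 to 0.76 log2 CPM in fresh-frozen libraries, and the SE of its change was 0.31. It exceeded 1 CPM in every PFA-fixed library but not in fresh-frozen replicates 1 and 3. So it met the minimum of 4 libraries only with fixed ones, and its call gives no support for the direction. Of 9 genes of the FET and DBHS families and their relatives 7 rose, led by TAF15 (1.5) and PSPC1 (1.19), and KHSRP (-0.28) and MATR3 (-0.17) fell. The call of MATR3 ended with median centring (-0.09), when no trend was fitted (limma adjusted p = 0.0562) and without PFA-fixed replicate 1 or 4 or fresh-frozen replicate 1 or 2 (-0.17 to -0.13). Among 4 kinase genes, the muscle kinase SRPK3 rose by 1.47 and DYRK1A by 0.20 (-0.07 and -0.66 under rod-mean and rod-median scaling), and SRPK2 fell by 0.18. The call of DYRK1A ended with quantile normalization (0.13) and without PFA-fixed replicate 3 (0.16) or fresh-frozen replicate 1 (0.17). That of SRPK2 ended with median centring (-0.10) and without PFA-fixed replicate 2 or 3 or fresh-frozen replicate 3 or 4 (-0.17 to -0.16).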

How the data were processed

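Total RNA libraries of PFA-fixed and fresh-frozen dog retina (4 each) were analysed from 1 table of log2 CPM values that the authors deposited. The tools listed in the submitters' processing notes are kallisto 0.48.0, edgeR and limma, without a role or order; which transcript reference, strand setting and filter they used is not given in the sources used here. CPM is not corrected for transcript length, so levels are not compared between genes. The shared lowest value was -3.12 log2 CPM, equal to 2.13 reads at the median depth.

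Members and lists were chosen with earlier results of these data known. The main test was limma 3.58.1 (R 4.3.3) with an intensity trend on all 12824 genes, PFA-fixed minus fresh-frozen, without further filter, with Benjamini-Hochberg adjustment and a threshold of 0.05. The step was tested on simulated data. Effective depth was estimated from the spacing of low values (searched from 0.03 to 0.15 CPM; 62.7% to 70.1% of them whole within 0.1 read), so no count test was run. Genes were named by rule: the 6 disease-linked genes, the other PRPF and SRSF genes (1 is not reported here), the 3 largest called rises and falls of each class, and the 2 largest of each group of other splicing genes; other members were named after their values were seen. Alternatives were median centring, quantile normalization, centring on the mean or median of 23 rod genes, log2(CPM + 1), a minimum mean of 3 log2 CPM, the replicate number as a block, limma without trend, a minimum change of 1.5-fold (limma treat) and leaving out each library. Sequences are not shown.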

Additional observations from a re-analysis of the deposited data

Results flagged for a closer look

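In 14 of 242 groups of 4 libraries (the members reported here, in each preparation), 1 library lay far from the other 3 by Dixon's ratio at the 95% level, which chance alone passes in about 1 of 20 groups. In PFA-fixed retina these were PRPF4 and SNRPB in replicate 1 (4.00 and 4.26 log2 CPM, others 3.60 to 3.64 and 4.06 to 4.08) and RBM47 in replicate 1 (-2.26, others -0.29 to -0.20). SRSF5 and LSM4 stood apart in PFA-fixed replicate 2 (8.33 and 5.89, others 8.05 to 8.06 and at 6.02), and SRSF9 and LUC7L2 in PFA-fixed replicate 4 (5.79 and 7.07, others 5.66 to 5.68 and 7.25 to 7.28).

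In fresh-frozen retina, replicate 1 stood apart for LSM10 (2.17, others 2.02 to 2.04), SRRM5 (-0.79, others 0.69 to 0.86), SNRNP35 (5.11, others 5.45 to 5.50) and RBM34 (4.93, others 5.18 to 5.20). Replicate 2 stood apart for SRSF12 (4.74, others 4.26 to 4.33) and LUC7L3 (8.68, others 7.77 to 7.87), and replicate 4 for RBM15 (4.71, others 4.86 to 4.88). SRSF12 is the gene of this set whose call changed without the library concerned.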

How the results depend on the processing

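Leaving out each library left 8338 to 8649 genes called over all genes, 82 to 86 members higher and 10 to 12 lower, with 3 disease-linked genes higher each time, and the members' median was 0.46 to 0.52. The members' median was 0.56 with median centring, 0.21 under rod-mean scaling and -0.38 under rod-median scaling. Rod-median scaling left 21 members higher and 67 lower, and rod-mean scaling 62 higher and 26 lower. Of the 6 disease-linked genes, limma called 1 higher under rod-mean scaling and 0 under rod-median scaling, and at an unadjusted p under 0.05 also 0 under rod-median scaling. A minimum change of 1.5-fold left 3343 genes, 36 members higher, 1 lower and 1 disease-linked gene higher. Neither log2(CPM + 1) nor the minimum level changed a call of a named gene that could be tested. Whether replicate numbers mark shared dogs is not known, and they were not treated as pairs because not every correlation of same-numbered libraries exceeded 0.1: r was 0.0496, 0.1488, -0.0893 and 0.2237 across genes for numbers 1 to 4, and numbers 1, 2 and 4 correlated best with their own. With the replicate block 8799 genes were called, and among the named genes the calls of SNRPB2 and RBM18 were lost. Among genes called as deposited or under the scaling concerned, changes turned sign under rod-mean scaling for DYRK1A -0.066, HNRNPM -0.021, HNRNPF -0.22, HNRNPL -0.27, RBM19 -0.028, RBM8A -0.043, DDX5 -0.051, SF3A3 -0.036, SF3A1 -0.095 and SF3B2 -0.22. Under rod-median scaling they did so for PRPF6 -0.52, PRPF31 -0.42, PRPF39 -0.040, PRPF4B -0.21, PRPF38A -0.46, SRSF4 -0.092, SRSF11 -0.20, SRSF7 -0.28, SRSF3 -0.51, SRSF12 -0.61, SRSF9 -0.83, U2AF1 -0.028, SF3B1 -0.14, SF3A2 -0.25, PRMT5 -0.027, DYRK1A -0.66, U2SURP -0.11, SMNDC1 -0.47, LSM3 -0.067, SNRPE -0.11, SNRPA -0.19, LSM4 -0.24, SNRNP35 -0.43, LSM12 -0.55, LSM2 -0.84, HNRNPU -0.062, HNRNPDL -0.30, HNRNPUL2 -0.33, HNRNPA3 -0.42, HNRNPA1 -0.45, HNRNPK -0.47, HNRNPH1 -0.52, HNRNPM -0.61, HNRNPF -0.81, HNRNPAB -0.85, HNRNPL -0.86, RBM48 -0.070, RBM41 -0.11, RBM34 -0.17, RBM26 -0.17, RBM39 -0.27, RBM14 -0.34, RBM28 -0.37, RBM15 -0.39, RBM6 -0.40, RBM7 -0.49, RBM19 -0.62, RBM8A -0.63, RBM11 -0.67, RBM27 -0.75, RBM10 -0.77, RBM12 -0.77, CLK1 -0.0015, SRRM1 -0.14, LUC7L2 -0.38, CLK3 -0.45, SON -0.58, DDX5 -0.64, TRA2B -0.48, U2AF2 -0.34, SF3B6 -0.37, SF3A3 -0.63, SF3A1 -0.69, SF3B5 -0.80 and SF3B2 -0.81. Both scalings subtract 1 value per library from every gene. Values near the lowest in the table, as for LSM5, RBM47, SRRM5, SF3B5 and ESRP2, are the least precise.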
